A study of Mus musculus with 45 samples.

Results

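Hearts of regular weight mice that breathed mainstream cigarette smoke were compared with hearts of regular weight mice that breathed filtered air. The 8 mainstream smoke arrays (RW-MS 1 to 8) and the 8 sham control arrays (RW-SC 1 to 8) were taken by their titles and made up 16 of the 45 arrays of the series, 1 mouse per array. All mice were male C57BL/6 bought at 13 weeks of age. Regular weight (RW) mice were those kept on a certified rodent chow with about 5 kcal% fat. Exposure was through the nose only, for 5 h a day, from 15 weeks of age, with 5 days of exposure, 2 days of rest and 3 further days of exposure, 8 in all, and necropsy came on the day after the last one. Sham controls went through the same inhalation in filtered air. The growth protocol speaks of an LPS exposure where the titles and the treatment protocol name smoke, and the smoke labels were followed. The labels give neither the smoke concentration nor the hour of necropsy. For tests of differences, 7 regular weight arrays after sidestream smoke (RW-SS) and 6 mainstream smoke and 8 filtered air arrays of diet-induced obese mice (DIO-MS and DIO-SC, 60 kcal% fat) were used as well.

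Mainstream smoke is what is drawn through the cigarette, and sidestream smoke is what leaves its burning tip. Inhaled smoke brings carbon monoxide, nicotine, oxidants and aromatic hydrocarbons into the blood that reaches the heart. Aromatic hydrocarbons act through the aryl hydrocarbon receptor and its target Cyp1a1, oxidants and electrophiles through the transcription factor NRF2 and its glutathione genes, and the heart's own clock and stress hormones set the daily rise and fall of many cardiac transcripts.

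Every value below is a log2 expression value after RMA (robust multi-array average), so that a difference of 1 is a factor of 2 between groups. A difference is RW-MS minus RW-SC with its limma standard error, from 8 and 8 arrays unless stated otherwise, and a gene rose or fell where its Benjamini-Hochberg adjusted p over all 9295 genes tested was below 0.05. The samples were hearts by their markers: the ventricular myosin light chain Myl2 read 14.46 to 14.54 in RW-MS and 14.48 to 14.56 in RW-SC, and troponin I (Tnni3) read 14.11 to 14.15 and 14.07 to 14.15. Array medians lay between 6.20 and 6.24 over the whole series.

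Arrays of both groups stood apart in markers of other tissues. Sarcolipin (Sln), an atrial regulator of the calcium pump, read 4.47, 5.37 and 5.42 in RW-MS 2, 6 and 8, against 12.16 to 12.97 in the other 5 RW-MS arrays and 11.56 to 12.83 in RW-SC. The mean of the 14 atrial genes tested lay at -2.60 in these 3 arrays relative to RW-SC, and the other RW-MS arrays lay between -0.28 and 0.29. White fat markers were low in them as well, with a list mean of -1.24, but RW-SC arrays alone ranged from -1.12 to 1.12. The brown fat list mean was -0.58 in the 3 arrays and -0.70 to 0.84 in RW-SC. All of the other 5 RW-MS arrays lay above the RW-SC mean, at 0.23 to 0.93 for white fat and 0.41 to 0.78 for brown fat. The fit without RW-MS 2, 6 and 8 thus sets smoke arrays richer in fat transcripts against RW-SC. The fibroblast list mean of RW-MS 2, 6 and 8 was -0.34, against -0.16 to 0.07 in RW-SC.

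RW-MS 7 carried transcripts of thymus and lymphocytes. Rag1, the recombinase of developing lymphocytes, read 9.70 there and at most 2.99 in the other 15 arrays, and Dntt, the terminal transferase of the same stage, read 8.74 against at most 5.10. Cd3d and Cd8a of T cells reached 8.69 and 7.72, against at most 5.57 and 5.32, and the epithelial keratin Krt18 reached 9.99, against at most 6.34. In all, 62 of the genes tested read more than 1 log2 unit above each of the other 15 arrays in RW-MS 7, where no other array had more than 4 such genes. The B cell transcripts Ighm and Ms4a1 were highest in RW-SC 1, at 12.01 and 8.41. RW-SC 7 and RW-SC 8 carried secretoglobin transcripts of the airway: Scgb1a1 read 11.56 and 10.95 there and at most 3.95 in the other 14 arrays, and Scgb3a2 read 9.19 and 8.36 against at most 4.29. The 5 lung and airway markers bright enough to test, neither secretoglobin among them, did not stand out alike. Their mean relative to RW-SC was 0.18 in RW-SC 7 and -0.03 in RW-SC 8, and -0.10 to 0.20 in RW-MS. Results are therefore given with all arrays, without RW-MS 2, 6 and 8, and where the call depends on it without RW-MS 7. Counts from a fit with the atrial list mean as a covariate are given at the end. Beyond that fit, what these arrays' extra or missing tissue added to any single gene was not tested. In whole hearts, fewer cells of a type and less RNA per cell cannot be told apart.

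**Figure D1:**
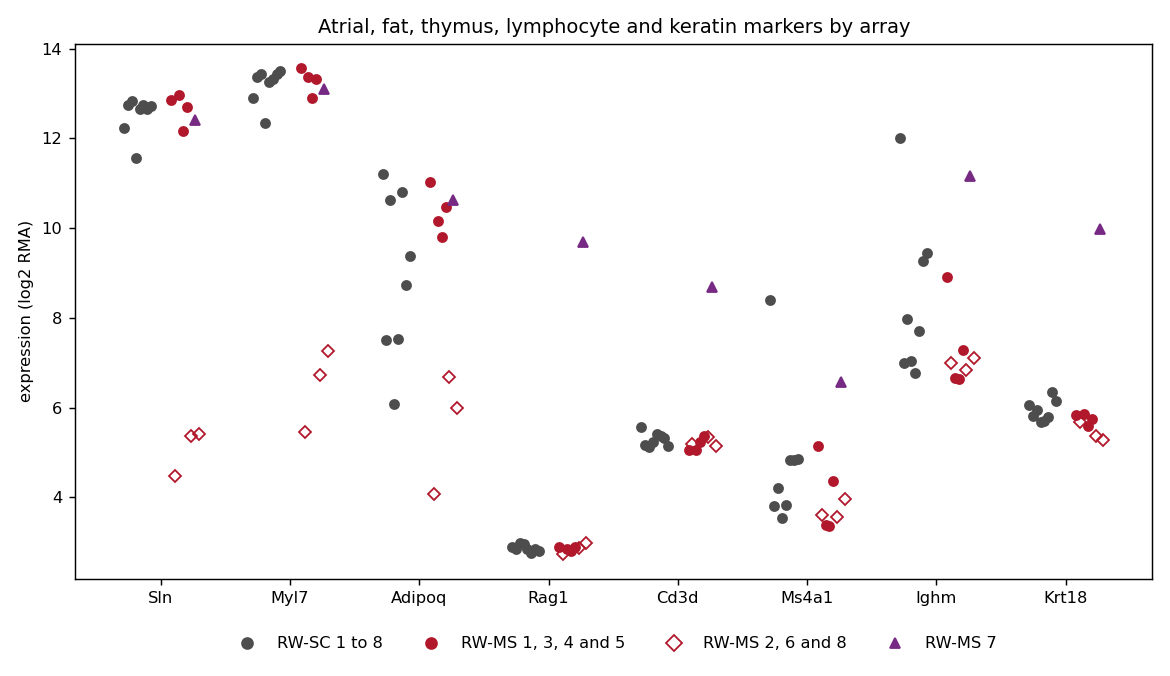
Expression (log2 RMA, vertical axis) of 8 marker genes in each of the 16 arrays; grey circles are RW-SC, red circles RW-MS 1, 3, 4 and 5, open diamonds RW-MS 2, 6 and 8, and the purple triangle RW-MS 7. The open diamonds lie between 4.47 and 7.26 for the atrial genes Sln and Myl7, and the triangle stands alone at 9.70 for Rag1, 8.69 for Cd3d and 9.99 for Krt18.

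Between RW-MS and RW-SC, 638 of 9295 genes differed, or 6.86% of those tested, of which 266 rose (2.86%) and 372 fell (4.00%). Most changes were small: the median absolute difference of these 638 genes was 0.20, a factor of 1.15, and only 2 rises and 14 falls reached 1.5-fold. Without RW-MS 2, 6 and 8, 380 genes passed (4.09%), 160 higher (1.72%) and 220 lower (2.37%), and 327 genes passed in both fits, none of them in opposite directions. A set of 258 genes, 105 higher and 153 lower, passed in both fits and also after each single array of either group was left out. With RW-MS 7 removed together with the 3 arrays without atrial transcripts, 195 of these 258 genes passed on the 4 RW-MS arrays that remained. Without RW-SC 7 and 8, 467 genes passed, 251 of the 258 among them; of the 100 genes named by rule that passed with all arrays, 19 did not pass there, and Kcnj12 was the only one of them in the set of 258. The values of the 2 groups did not overlap at all for 103 genes (1.11% of genes tested), 41 of them higher (0.441%) and 62 lower (0.667%) in RW-MS, and 85 of the 103 were in the set of 258. Without RW-MS 2, 6 and 8 the share of genes without overlap was 2.45%, on fewer arrays. The counts of each gene group below are to be read against the shares of 2.86% higher and 4.00% lower, and the group medians against 0.00 for all genes tested.

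**Figure D2:**
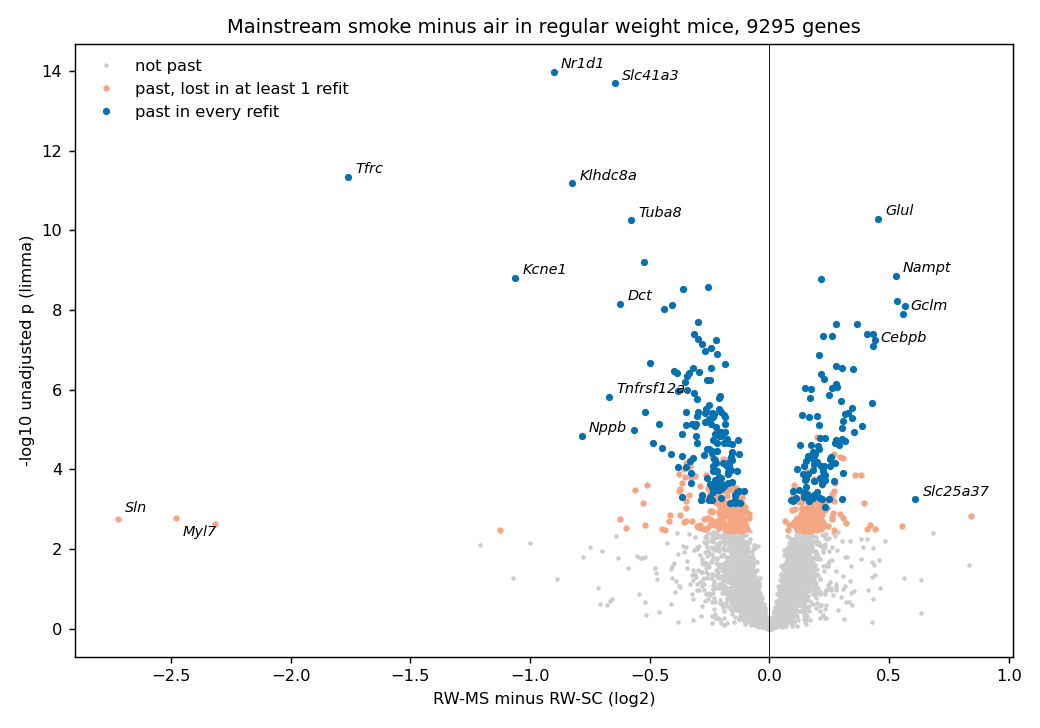
Each of the 9295 genes tested by its RW-MS minus RW-SC difference (log2, horizontal axis) and its unadjusted limma p (-log10, vertical axis). Blue points are the 258 genes that passed with all arrays, without RW-MS 2, 6 and 8 and without any single array, orange points passed with all arrays but were lost in at least 1 of these refits; Sln and Myl7 are orange, Tfrc, Nr1d1 and Slc41a3 blue.

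The largest fall that did not rest on the missing atrial tissue was that of the transferrin receptor. Tfrc, which takes up transferrin-bound iron, read 9.99 to 10.56 (median 10.16) in RW-SC and 7.96 to 8.88 (median 8.67) in RW-MS. The groups were separated by more than 1 log2 unit, with RW-MS 2, 6 and 8 among the other smoke arrays and RW-MS 7 the highest of them. The difference was -1.76 ± 0.19, or 3.39-fold lower in smoke (limma adjusted p = 1.39e-08), and it was -1.78 without RW-MS 2, 6 and 8. A much dimmer probe set of the gene (mean 4.69 over 45 arrays) differed by -0.75, and another dim one (mean 5.69) by -0.10, which did not pass.

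Of 32 iron and heme genes tested, 4 rose and 4 fell, with a list median of -0.01. Alas1, the first enzyme of heme synthesis outside red cells, read 10.03 to 10.41 (median 10.19) in RW-SC and 9.48 to 10.04 (median 9.73) in RW-MS, overlapping only at the edge, and fell by 0.46 ± 0.09 (adjusted p = 0.000707). The copper ferroxidase Cp fell by 0.31 ± 0.07 (adjusted p = 0.0059), a call that was lost without RW-MS 2, 6 and 8 (adjusted p = 0.196). Slc40a1, the iron exporter ferroportin, read 8.19 to 8.53 (median 8.33) in RW-SC and 8.45 to 8.97 (median 8.84) in RW-MS and rose by 0.43 ± 0.08 (adjusted p = 0.000291). The transcripts for iron uptake and export moved in opposite directions, and the ferritin heavy chain Fth1 differed by -0.04 ± 0.02 and did not pass.

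Slc25a37 (mitoferrin, which carries iron into mitochondria and is abundant in red cell precursors) read 7.33 to 7.67 (median 7.46) in RW-SC and 7.68 to 8.77 (median 7.99) in RW-MS. No smoke array lay inside the control range, and RW-MS 7 was highest. It rose by 0.61 ± 0.16, a factor of 1.53 (adjusted p = 0.0161), with an adjusted p of 0.0724 without RW-MS 2, 6, 7 and 8. Of the 4 red cell genes tested 0 passed in limma; their mean was 0.00 to 0.88 in RW-MS and -0.13 to 0.12 in RW-SC, relative to the RW-SC mean, and again RW-MS 7 was highest. Alas2, the red cell counterpart of Alas1, differed by 0.68 ± 0.22 (adjusted p = 0.0532), and passed without RW-MS 2, 6 and 8 (0.91, adjusted p = 0.0269). The 4 other red cell genes on the array, the alpha globin Hba-a1 among them (3.37 to 3.91 in RW-MS, 3.51 to 3.73 in RW-SC), were too dim to test. The part of red cell RNA in the rise of Slc25a37 was not tested. Tent5c, a poly(A) polymerase named here after its values were seen, had the highest rise of all (0.84 ± 0.25, adjusted p = 0.0297), a call that was lost without RW-MS 7 (adjusted p = 0.0679).

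Among 18 clock genes tested, 4 fell and 0 rose with all arrays, and 4 fell and 1 rose without RW-MS 7. Nr1d1, the nuclear receptor REV-ERB alpha that represses Bmal1, was among the surest changes: it read 6.92 to 7.46 (median 7.32) in RW-SC and 6.16 to 6.66 (median 6.34) in RW-MS. Every smoke array lay below every control. It fell by 0.90 ± 0.08, a factor of 1.87 (adjusted p = 9.65e-11), and by 0.91 without RW-MS 2, 6 and 8. Clock, the transcription factor that drives the loop with Bmal1, read 7.19 to 7.56 (median 7.37) against 6.88 to 7.15 (median 7.02), again without overlap, and fell by 0.36 ± 0.05 (adjusted p = 2.37e-06). A second Clock probe set fell less (-0.17) and missed the threshold.

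Bhlhe40 (DEC1, a repressor of the loop) fell by 0.38 ± 0.07 (adjusted p = 0.000167), with 9.05 to 9.37 in RW-SC and 8.68 to 8.93 in RW-MS. Dbp, an output factor of the clock, read 10.87 to 11.37 (median 11.07) and 10.62 to 10.89 (median 10.78). It fell by 0.33 ± 0.08 (adjusted p = 0.00543), and its highest smoke array just reached into the control range. The other limbs of the loop did not pass: Arntl (Bmal1) differed by -0.27 ± 0.12, Per1 by -0.17 ± 0.12, Per2 by 0.10 ± 0.09, Per3 by 0.13 ± 0.09 and Nr1d2 by 0.08 ± 0.05. The list median was 0.05. Whether the groups were killed at the same hour is not stated in the labels.

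**Figure D3:**
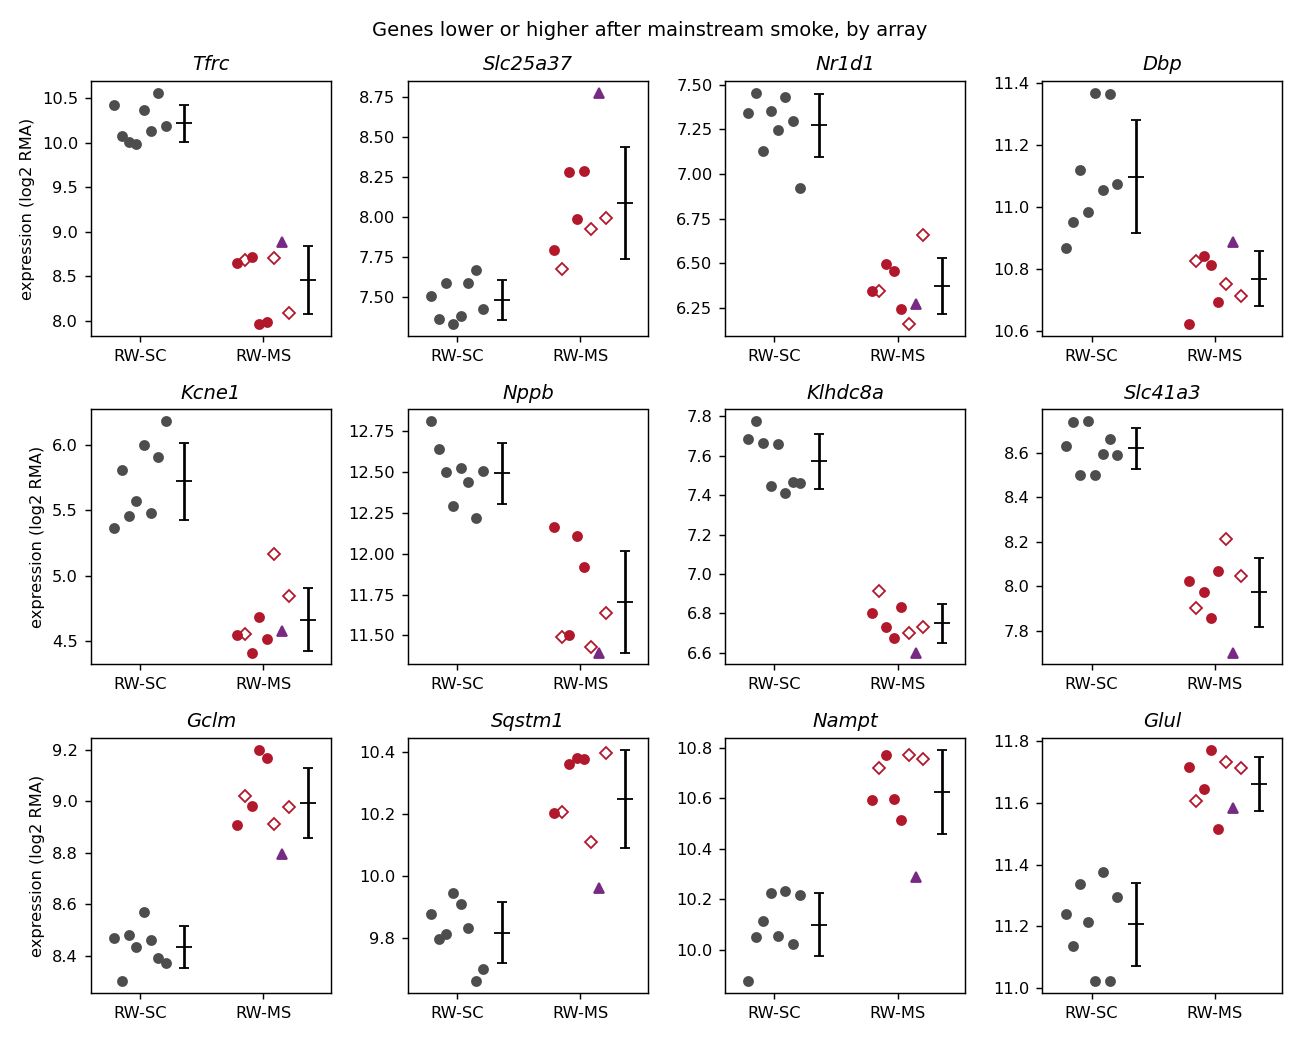
Expression (log2 RMA) of 12 genes in each array, with RW-SC on the left and RW-MS on the right of each panel; open diamonds are RW-MS 2, 6 and 8, triangles RW-MS 7, and the bars mark the mean and SD of 8 arrays. The groups overlap only for Dbp, and RW-MS spans 7.96 to 8.88 for Tfrc and 6.16 to 6.66 for Nr1d1.

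Of 18 potassium and sodium channel genes tested, 5 fell and 0 rose, 9 differences lay on each side of 0 and the list median was -0.01. Without RW-MS 2, 6, 7 and 8, 2 of them fell. Kcne1, the small subunit of the slow delayed rectifier potassium channel, read 5.37 to 6.18 (median 5.69) in RW-SC and 4.41 to 5.17 (median 4.56) in RW-MS, all 8 smoke arrays below all controls. It fell by 1.06 ± 0.14, a factor of 2.09 (adjusted p = 1.57e-06), and by 1.18 without RW-MS 2, 6 and 8, though at these levels it lies in the dim part of the array's range. Kcnq1, the pore subunit that Kcne1 joins, fell by 0.23 ± 0.05 (adjusted p = 0.00111), from 8.03 to 8.32 in RW-SC to 7.68 to 8.06 in RW-MS. The inward rectifier Kcnj12 fell by 0.28 ± 0.08 (adjusted p = 0.0162, and 0.0565 without RW-SC 7 and 8) and the background channel Kcnk3 by 0.19 ± 0.05 (adjusted p = 0.0103), the last lost without RW-MS 2, 6 and 8 (adjusted p = 0.0506). RW-MS 7 had the lowest mean of this list among the RW-MS arrays (-0.27).

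Of 27 calcium handling and adrenergic genes, 1 rose and 4 fell. Casq2, the calcium store protein of the sarcoplasmic reticulum, fell by 0.16 ± 0.04 (adjusted p = 0.0029), and Asph, whose locus encodes junctin and aspartyl hydroxylase, by 0.35 ± 0.06 (adjusted p = 0.000112). The Asph locus was read by 5 probe sets above the filter, which differed by -0.37 to 0.01, so the fall was not seen with all of them. Prkar1a, the regulatory subunit of protein kinase A, fell by 0.20 ± 0.04 (adjusted p = 0.000451). Grk5, a kinase that turns off adrenergic receptors, fell by 0.29 ± 0.07 (adjusted p = 0.00945), a call lost without RW-MS 2, 6 and 8 (adjusted p = 0.134).

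Of 28 stretch and hypertrophy genes, 6 fell and 1 rose, and without RW-MS 2, 6 and 8 the counts were 4 and 0, and without RW-MS 7 as well 2 and 0. Nppb (brain natriuretic peptide, made under wall stretch) read 12.22 to 12.81 (median 12.50) in RW-SC and 11.40 to 12.17 (median 11.57) in RW-MS. The highest smoke array lay just under the lowest control. It fell by 0.78 ± 0.16, a factor of 1.72 (adjusted p = 0.00119), with an adjusted p of 0.0271 without RW-MS 2, 6 and 8 and 0.108 when RW-MS 7 was left out as well. Tnfrsf12a (Fn14, the receptor of the cytokine TWEAK) fell by 0.67 ± 0.12 (adjusted p = 0.000223), from 9.26 to 10.01 to 8.41 to 9.16, and Rcan1, an inhibitor of calcineurin, by 0.31 ± 0.06 (adjusted p = 0.000185). Myh7, the slow myosin heavy chain, fell by 0.62 ± 0.19 (adjusted p = 0.0341) with overlapping groups and a call that was lost without RW-MS 7 (adjusted p = 0.0736). Ankrd1, a stretch-sensing titin partner, went the other way and rose by 0.27 ± 0.07 (adjusted p = 0.0173), but not without RW-MS 2, 6 and 8 (adjusted p = 0.109).

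The atrial genes Sln, Myl7 and Myl4 had the lowest differences of all genes tested. RW-MS 2, 6 and 8 were picked by Sln below 8, so its values with and without them follow from that choice, and those of genes of the same tissue are not independent of it. Sln differed by -2.72 ± 0.82 with all arrays and by 0.10 without RW-MS 2, 6 and 8. Myl7 and Myl4, the atrial myosin light chains, differed by -2.48 and -2.32 with all arrays and by 0.06 and 0.15 without the 3. Nppa, atrial natriuretic peptide, differed by -1.12 ± 0.36 and by 0.11. Besides Sln, 3 of the other 13 atrial genes tested passed with all arrays and 0 without the 3, and the list median went from -0.74 to 0.01. Olfm1, named here after its values were seen, behaved alike, with -0.60 and -0.16.

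**Figure D4:**
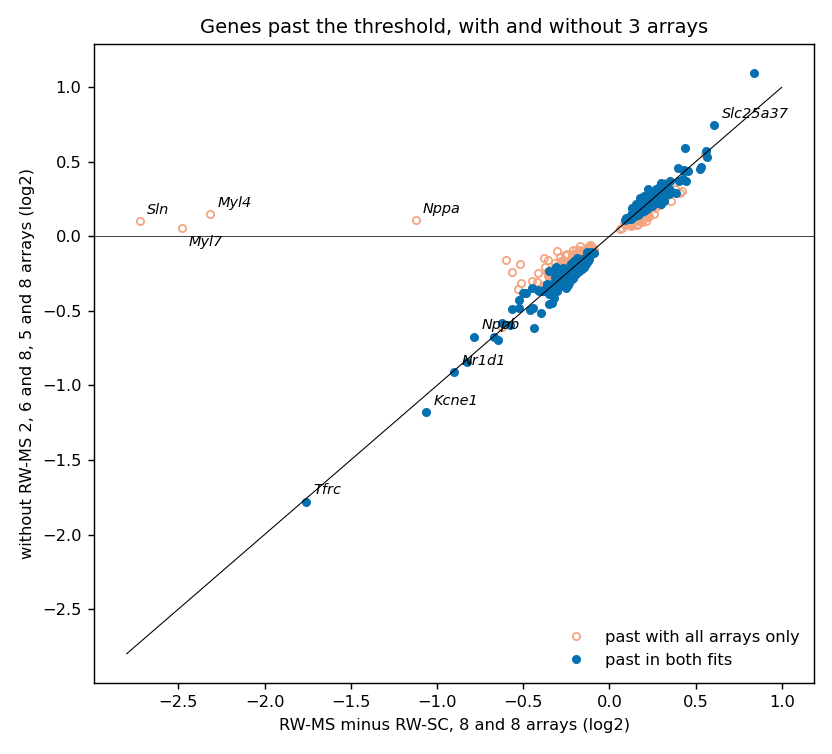
The RW-MS minus RW-SC difference (log2) of the genes past the threshold with all 8 RW-MS arrays (horizontal axis) and with the 5 that held atrial transcripts (vertical axis); filled points passed in both fits, open points with all arrays only, and the line marks equal values. The 4 atrial genes leave the line (Sln from -2.72 to 0.10), and Tfrc (-1.76 and -1.78) and Nr1d1 (-0.90 and -0.91) stay on it.

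Among the other large falls, Klhdc8a, a kelch domain protein, read 7.41 to 7.78 (median 7.56) in RW-SC and 6.60 to 6.91 (median 6.73) in RW-MS and fell by 0.82 ± 0.09 (adjusted p = 1.56e-08). Slc41a3, of a family of magnesium carriers, went from 8.50 to 8.74 (median 8.61) to 7.70 to 8.21 (median 8.00) and fell by 0.65 ± 0.06 (adjusted p = 9.65e-11). In both genes the groups did not overlap. The other 2 probe sets of Slc41a3 differed by -1.17 and -0.37. Dct, dopachrome tautomerase of the melanin pathway, fell by 0.62 ± 0.09 (adjusted p = 4.57e-06), from 6.70 to 7.20 to 6.02 to 6.61. The tubulins Tuba8 and Tubb4b fell by 0.58 ± 0.07 and 0.52 ± 0.07 (adjusted p = 8.73e-08 and 8.23e-07), each without overlap, although 2 dimmer Tubb4b probe sets differed by no more than -0.06. Rgs2, which damps signalling through Gq-coupled receptors, fell by 0.56 ± 0.11 (adjusted p = 0.000933).

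Ptgds, the lipocalin-type prostaglandin D synthase, read 12.94 to 13.45 (median 13.24) in RW-SC and 12.31 to 13.02 (median 12.70) in RW-MS and fell by 0.52 ± 0.10 (adjusted p = 0.000449). It was 1 of 2 changes among 27 inflammation genes tested, beside the rise of Cebpb. The acute phase gene Lcn2 differed by -0.03 ± 0.14, and 0 of 25 interferon genes and 0 of 6 MHC class II genes passed in limma, where 2 and 0 had an unadjusted p below 0.05. Single arrays widened the spread of both lists. The interferon list mean was 0.67 in RW-SC 4 and -0.23 to 0.02 in the other RW-SC arrays, and 21 interferon differences lay below 0 and 4 above. The MHC class II list mean was highest in RW-SC 1 (0.88) and RW-MS 7 (1.14). The splicing factor Srsf3 fell by 0.50 ± 0.08 (adjusted p = 5.48e-05): 7 smoke arrays read 8.99 to 9.52, under the control range of 9.75 to 9.95, and RW-MS 7 stood above it at 10.06. Small heat shock protein Hspb3 fell by 0.44 ± 0.06 (adjusted p = 5.28e-06) and was the only one of 23 heat shock genes to pass. The inducible Hspa1b differed by 0.15 ± 0.24, and its highest smoke value, 8.60, was that of RW-MS 7.

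Of 31 genes tested for chaperones and the unfolded protein response of the endoplasmic reticulum, where secreted and membrane proteins are folded, 10 fell, 1 rose and 20 did not pass, with a list median of -0.08. Without RW-MS 2, 6 and 8 the counts were 2 and 0 and the median was -0.06. The list mean was -0.14 in those 3 arrays, -0.12 to 0.03 in the other RW-MS arrays and -0.05 to 0.07 in RW-SC. Manf, a secreted stress factor of this compartment, read 8.70 to 9.11 (median 8.81) in RW-SC and 7.94 to 8.67 (median 8.36) in RW-MS and fell by 0.49 ± 0.10 (adjusted p = 0.00157). Hspa5 (BiP, the master chaperone) read 11.98 to 12.17 (median 12.12) and 11.69 to 12.03 (median 11.85) and fell by 0.25 ± 0.05 (adjusted p = 0.00205). Both fell without the 3 arrays as well (-0.38 and -0.24, adjusted p = 0.0364 and 0.0173). The disulfide isomerase Pdia3 and the translocon subunit Ssr1 fell by 0.26 ± 0.07 and 0.18 ± 0.04 with all arrays, and neither passed without the 3.

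Promoters were searched for the endoplasmic reticulum stress response element, known from chaperone genes of this compartment, CCAAT and CCACG with 9 free bases between them, on both strands of the 300 bases from 250 before to 50 after each start (RefSeq, GRCm38.p6). Of 32851 promoters, 0.119% held it, and so did 15 of the 7482 tested genes with a promoter in the table. 4 of the 306 genes that fell held it and 0 of the 206 that rose; all 4 are endoplasmic reticulum chaperones of the list, and 3 of them are named here after their values were seen. The elements are printed on the strand that matches, with the fixed letters in capitals.
Hspa5: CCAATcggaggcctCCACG
Calr: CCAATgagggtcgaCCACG
Hsp90b1: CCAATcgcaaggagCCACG
Pdia6: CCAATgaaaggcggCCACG
They lie at chr2:34772025-34772043 (+ strand), chr8:84847075-84847093 (+), chr10:86705638-86705656 (-) and chr12:17266491-17266509 (+). The calcium-binding chaperone Calr fell by 0.18 ± 0.06 (adjusted p = 0.0478), Hsp90b1 (GRP94) by 0.13 ± 0.04 (adjusted p = 0.0454) and the isomerase Pdia6 by 0.19 ± 0.05 (adjusted p = 0.0112), and none of these 3 passed without RW-MS 2, 6 and 8. The other 11 tested genes with the element did not pass, Canx (-0.03 ± 0.03) and Creld2 (-0.15 ± 0.08) among them. The whole window of Hspa5 (chr2:34771840-34772139, + strand) places the element 65 bases before the start.
Hspa5 promoter: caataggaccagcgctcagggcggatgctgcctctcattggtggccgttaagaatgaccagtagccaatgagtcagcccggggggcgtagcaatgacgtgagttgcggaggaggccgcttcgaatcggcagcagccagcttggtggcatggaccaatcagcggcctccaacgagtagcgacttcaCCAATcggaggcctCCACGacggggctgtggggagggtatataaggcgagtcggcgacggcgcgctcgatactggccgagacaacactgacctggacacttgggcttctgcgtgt
A match is a run of letters in the window and was not read as a bound site.

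Matrix genes were lower mainly where the 3 arrays entered. Of 39 genes of fibrillar collagens and their processing, 7 fell and 0 rose, with a list median of -0.24, the lowest of the 33 pathway lists; without RW-MS 2, 6 and 8 the median was -0.10 and 2 genes fell. The list mean was -0.37 in those 3 arrays and -0.09 in the other RW-MS arrays, beside -0.34 and -0.02 for the fibroblast markers. The fibroblast markers include collagens themselves (Col1a1, Col1a2 and Col3a1), so the lists are not independent and their likeness shows nothing about cell content. Plod1, a collagen lysyl hydroxylase, held in both fits: it read 8.25 to 8.56 (median 8.43) in RW-SC and 7.89 to 8.26 (median 8.13) in RW-MS and fell by 0.30 ± 0.06 (adjusted p = 0.000449). Col1a1 differed by -0.26 ± 0.11 and did not pass. Mmp3, Timp3 and Thbs4 fell by 0.53 ± 0.14, 0.28 ± 0.08 and 0.34 ± 0.09 with all arrays, and none of them passed without the 3 arrays.

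Timp4, an inhibitor of matrix proteases that is abundant in the heart, differed by -0.44 ± 0.14 (adjusted p = 0.049) with all arrays and by -0.62 (adjusted p = 0.00792) without the 3, where its highest smoke array (RW-MS 6, 8.37) drops out; without RW-MS 7, its lowest (7.15), the adjusted p was 0.0965. Of 20 basement membrane genes 3 fell. The type IV collagens Col4a2 and Col4a1, transcribed from 1 shared promoter region, fell by 0.30 ± 0.06 and 0.26 ± 0.07 (adjusted p = 0.00155 and 0.0161). Col4a1 missed the threshold without the 3 arrays (adjusted p = 0.0585) and its second probe set differed by -0.06. The vascular receptor Flt4 fell by 0.19 ± 0.05 and the peptide Apln by 0.24 ± 0.06 (adjusted p = 0.00937 and 0.0162), 2 of 27 angiogenesis genes, and Vegfa differed by 0.09 ± 0.06. A second, dimmer Flt4 probe set went the other way (0.11) and did not pass.

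Among the genes that rose was Gclm, the modifier subunit of the enzyme that limits glutathione synthesis, which read 8.30 to 8.57 (median 8.45) in RW-SC and 8.79 to 9.20 (median 8.98) in RW-MS, all 8 smoke arrays above all controls. It rose by 0.56 ± 0.08, a factor of 1.47 (adjusted p = 6.53e-06), and by 0.57 without RW-MS 2, 6 and 8. Its partner Gclc, the catalytic subunit, differed by 0.05 ± 0.04 and did not pass. Sqstm1 (p62, an autophagy adaptor that releases NRF2 from its inhibitor) read 9.66 to 9.95 (median 9.82) and 9.96 to 10.40 (median 10.29), without overlap, and rose by 0.43 ± 0.06 (adjusted p = 1.54e-05).

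Of 33 NRF2 and glutathione genes tested, 5 rose and 1 fell (list median 0.07); without RW-MS 2, 6 and 8, 2 rose and 0 fell. The metal-binding Mt1 and Mt2 rose by 0.23 ± 0.07 and 0.41 ± 0.13 (adjusted p = 0.0234 and 0.0474), and neither passed without the 3 arrays. The classical targets Nqo1 and Hmox1 differed by 0.09 ± 0.07 and 0.24 ± 0.11 (adjusted p = 0.537 and 0.176). Malic enzyme Me1, another target, fell by 0.27 ± 0.08 (adjusted p = 0.0336), a call lost without the 3 arrays (adjusted p = 0.143) and without RW-MS 7 (adjusted p = 0.0534). Of the 6 named genes of this list with a promoter in the table, Gclm, Me1 and Mt2 held a core antioxidant response element, TGACNNNGC on either strand. So did 12.4% of all promoters. Counted by gene, with a match in any of its promoters, it was 14% of all genes with a promoter in the table. The share was 17% of the tested genes, 18.4% of those that rose and 18.3% of those that fell. The Gclm window (chr3:122245307-122245606, + strand) is printed because Gclm rose most in the list; its match, in capitals, starts 134 bases before the gene and reads on the other strand.
Gclm promoter: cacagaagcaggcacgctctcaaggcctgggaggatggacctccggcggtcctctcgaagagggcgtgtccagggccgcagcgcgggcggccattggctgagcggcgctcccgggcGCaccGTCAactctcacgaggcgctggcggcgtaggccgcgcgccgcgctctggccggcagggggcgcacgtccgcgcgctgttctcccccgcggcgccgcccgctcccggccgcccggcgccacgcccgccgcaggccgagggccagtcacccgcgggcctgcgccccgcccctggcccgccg

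No gene of the aryl hydrocarbon receptor list rose with all arrays: of 14 tested, 1 fell. Without RW-MS 7, 1 rose and 1 fell. Cyp1a1 read 5.27 to 5.89 (median 5.70) in RW-SC and 5.43 to 6.20 (median 5.88) in RW-MS and differed by 0.18 ± 0.12 (adjusted p = 0.415). Cyp1b1 differed by -0.11 ± 0.15, and the groups overlapped for both. In obese mice Cyp1a1 was higher after mainstream smoke, without overlap: it read 4.15 to 4.82 in DIO-SC and 5.86 to 6.55 in DIO-MS, a difference of 1.82 ± 0.13 (adjusted p = 9.74e-14). The epoxide hydrolase Ephx1 fell by 0.21 ± 0.06 (adjusted p = 0.0148), but not without RW-MS 2, 6 and 8, where the list had 1 rise and 0 falls. Aox1, an aldehyde oxidase, rose by 0.41 ± 0.06 (adjusted p = 1.54e-05), and the drug efflux pump Abcb1a by 0.35 ± 0.07 (adjusted p = 0.000989).

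Nampt, which makes the NAD precursor nicotinamide mononucleotide, read 9.88 to 10.23 (median 10.09) in RW-SC and 10.29 to 10.77 (median 10.66) in RW-MS. Every smoke array was above every control, with RW-MS 7 lowest among them. It rose by 0.53 ± 0.07 (adjusted p = 1.57e-06) and was the only one of 13 NAD and sirtuin genes to pass. Glul, glutamine synthetase, read 11.02 to 11.38 (median 11.23) and 11.52 to 11.77 (median 11.68), also without overlap, and rose by 0.46 ± 0.05 (adjusted p = 8.73e-08). Gpcpd1, a glycerophosphocholine phosphodiesterase, and Etfbkmt, a methyltransferase of mitochondrial electron transfer flavoprotein, rose by 0.44 ± 0.07 and 0.57 ± 0.08 (adjusted p = 1.84e-05 and 4.57e-06). The small GTPase Rit1 rose by 0.53 ± 0.07 (adjusted p = 4.24e-06) and the kinase Jak1 by 0.35 ± 0.06 (adjusted p = 6.51e-05), although 2 dimmer Jak1 probe sets did not pass.

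Of 28 genes induced by glucocorticoids, the stress hormones of the adrenal cortex, 7 rose and 1 fell, with a list median of 0.12. Without the 3 arrays 3 rose and the median was 0.13. Cebpb, a transcription factor of the acute stress response, read 9.30 to 9.74 (median 9.45) in RW-SC and 9.68 to 10.12 (median 9.88) in RW-MS and rose by 0.43 ± 0.07 (adjusted p = 2.36e-05). Gadd45a, a growth arrest gene, rose by 0.39 ± 0.08 (adjusted p = 0.000764). Ddit4 (REDD1, an inhibitor of mTOR) rose by 0.56 ± 0.17 (adjusted p = 0.0424), a call that was lost without the 3 arrays (adjusted p = 0.0888). Fkbp5, a widely used marker of the receptor's activity, differed by 0.14 ± 0.14 and did not pass, with its highest value (8.30) in RW-MS 7. Cdkn1a (p21) fell by 0.33 ± 0.08 (adjusted p = 0.00641), but not without the 3 arrays.

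Of 23 growth arrest and p53 genes, 4 rose and 1 fell. Ccng2, a cyclin that slows division, rose by 0.32 ± 0.07 (adjusted p = 0.00149) and held in both fits. Among 25 immediate early genes 2 rose and 2 fell. Ier3 rose by 0.22 ± 0.05 (adjusted p = 0.00507), while Myc rose by 0.44 ± 0.14 (adjusted p = 0.0473) with its highest value, 7.02, in RW-MS 7, and missed the threshold without that array (adjusted p = 0.0925). Egr1 fell by 0.45 ± 0.14 (adjusted p = 0.0481) and Ier2 by 0.18 ± 0.06 (adjusted p = 0.0453), and neither passed without RW-MS 2, 6 and 8. Of 25 genes of autophagy and atrophy, Sqstm1 and Gabarapl1 (0.22 ± 0.06, adjusted p = 0.0162) rose and 0 fell.

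Of 33 fatty acid oxidation genes 3 rose and 0 fell, and 5 rose without RW-MS 7: the carnitine carrier Slc25a20 rose by 0.26 ± 0.04 (adjusted p = 1.63e-05) in both fits, and Hadh and Acaa2 by 0.09 ± 0.03 and 0.19 ± 0.04, which did not pass without the 3 arrays. Pdk4, which shuts off glucose oxidation, differed by 0.31 ± 0.18 and Ucp3 by 0.24 ± 0.14, and neither passed. Plin5, which ties lipid droplets to mitochondria, read 9.17 to 9.43 (median 9.24) in RW-SC and 8.58 to 9.16 (median 8.88) in RW-MS and fell by 0.40 ± 0.07 (adjusted p = 7.21e-05), and Lpin1, a phosphatidate phosphatase, fell by 0.17 ± 0.04 (adjusted p = 0.00359).

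Hexokinase Hk1 read 9.78 to 9.96 in RW-SC and 9.50 to 9.68 in RW-MS and fell by 0.26 ± 0.03 (adjusted p = 2.18e-06), and the glucose transporter Slc2a1 rose by 0.27 ± 0.07 (adjusted p = 0.00749). They were among 4 falls and 1 rise over 32 glucose genes tested. Both held without RW-MS 2, 6 and 8, where 1 fall and 1 rise were left. Dbt, of the branched-chain keto acid dehydrogenase, rose by 0.28 ± 0.05 (adjusted p = 0.000127) and Fdft1 (squalene synthase) by 0.30 ± 0.06 (adjusted p = 0.000818). They were single rises among 20 genes of branched-chain amino acid breakdown and 18 of cholesterol synthesis, and without RW-MS 7, 5 and 1 rose. The other, dimmer Fdft1 probe sets differed by -0.08 to 0.18 and did not pass. Of 73 respiratory chain genes, 19 of the TCA cycle and 33 ribosomal proteins, 0 passed in limma, with list medians of 0.01, 0.01 and -0.04; 6, 2 and 6 had an unadjusted p below 0.05, and without RW-MS 7, 1, 1 and 7 genes passed. Of 36 proteasome genes 2 rose, Psma6 by 0.14 ± 0.03 and Psmd11 by 0.10 ± 0.03. The other, dimmer Psmd11 probe sets differed by 0.01 to 0.11 and did not pass.

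Whether mainstream smoke differed from sidestream smoke was tested directly as RW-SS minus RW-MS. 541 genes passed (5.82%), and 62 of them had also changed between RW-MS and RW-SC. The count rests on the spread shared by all 45 arrays: with only the arrays of the groups compared, 4 genes passed: Dbp, and Idh1 (0.40), Acin1 (-0.29) and Snrpd3 (-0.26), the last 3 named after their values were seen. Dbp stepped down from air to mainstream to sidestream smoke. Its mean was 11.10 ± 0.18 (SD, n = 8) in RW-SC, 10.77 ± 0.09 (n = 8) in RW-MS and 10.07 ± 0.26 (n = 7) in RW-SS, a further -0.70 ± 0.08 in sidestream smoke (limma adjusted p = 5.24e-07, and 0.00721 with only the groups compared). Bhlhe40 was also lower in RW-SS than in RW-MS, by -0.39 ± 0.07 (adjusted p = 0.000815 and 0.0853). Timp4 was higher in RW-SS by 0.68 ± 0.14 (adjusted p = 0.00378 and 0.15), at 8.28 ± 0.48 against 7.60 ± 0.39 in RW-MS and 8.03 ± 0.11 in RW-SC. Against air, Tfrc differed by -1.76 ± 0.19 in mainstream and -2.05 ± 0.19 in sidestream smoke, and Nr1d1 by -0.90 ± 0.08 and -1.15 ± 0.08. Both comparisons share the 8 RW-SC arrays, and 24.6% of genes passed in RW-SS minus RW-SC.

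**Figure D5:**
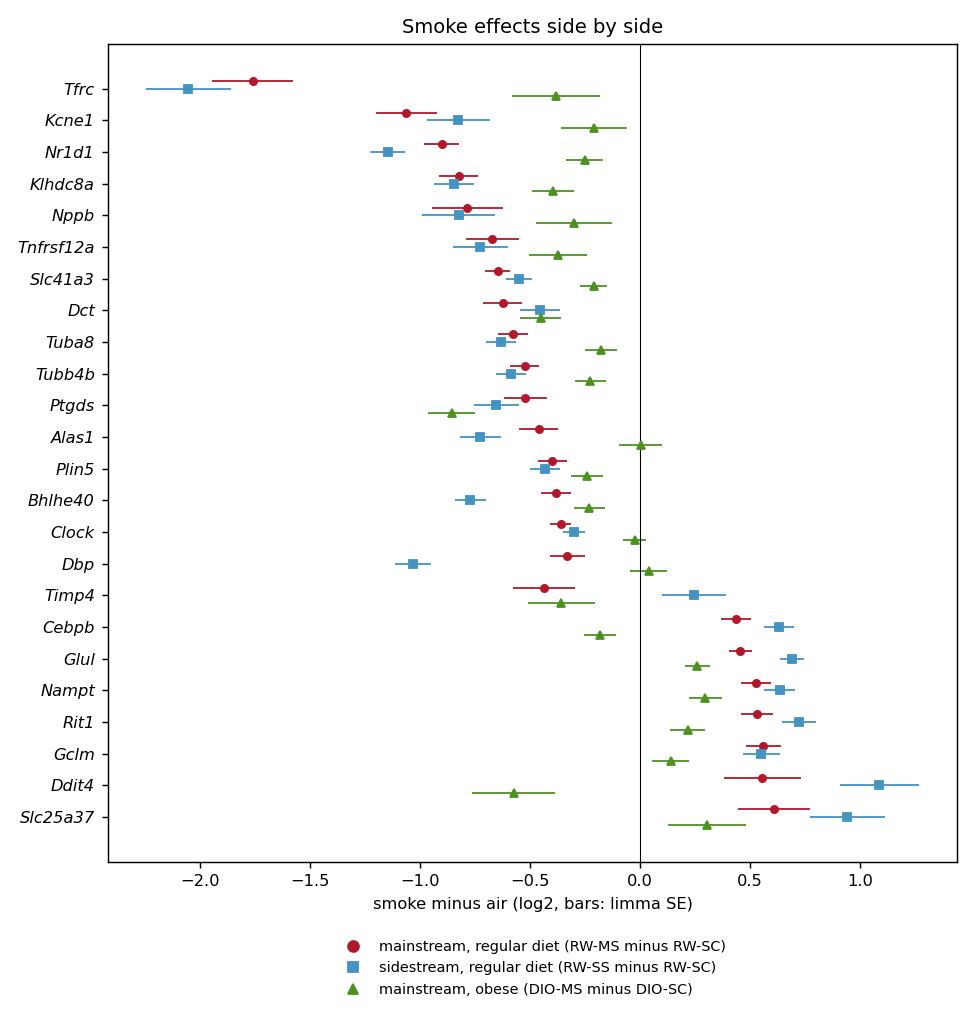
Smoke minus air differences (log2, horizontal axis) with limma standard errors for 24 genes: red circles RW-MS minus RW-SC, blue squares RW-SS minus RW-SC, green triangles DIO-MS minus DIO-SC. Red and blue share the RW-SC arrays; the green value lies nearer 0 than the red one for Tfrc (-0.38 against -1.76) and Nr1d1 (-0.25 against -0.90), and on the other side of 0 for Cebpb and Ddit4.

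The series' title asks about an impaired response to smoke in obesity, and whether the response to mainstream smoke depended on diet was tested as the effect in obese mice minus that in regular weight mice. The interaction passed for 21 genes (0.226%), 12 of which had changed in regular weight mice: 4 genes that had risen had a negative interaction and 8 that had fallen a positive one. The other 9 had not passed in regular weight mice and all passed in obese mice, 6 higher and 3 lower in smoke. The interaction subtracts the regular weight difference. For the 12 genes, chosen by that difference, an opposite sign follows largely from the choice and shows no weaker response by itself. For the 9 genes, chosen by a passing interaction and no call in regular weight mice, a call in obese mice likewise follows largely from the choice. Tfrc differed by -1.76 ± 0.19 in regular weight and -0.38 ± 0.20 in obese mice, an interaction of 1.38 ± 0.27 (adjusted p = 0.00924), and its means in obese mice were 10.42 ± 0.22 (SD, n = 8) in air and 10.04 ± 0.37 (n = 6) in smoke. For Nr1d1 the interaction was 0.65 ± 0.12 (adjusted p = 0.0027) and for Slc41a3 0.44 ± 0.08 (adjusted p = 0.00701). Cebpb rose in regular weight mice and differed by -0.18 ± 0.07 in obese mice, an interaction of -0.61 ± 0.10 (adjusted p = 0.000831). Its mean in obese air mice was 9.85 ± 0.12, near the 9.91 ± 0.14 of regular weight smoke mice. These 4 passed in every refit without 1 or more of the RW-MS arrays, without RW-SC 7 and 8 and with only the groups compared.

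The lowest adjusted p of the interaction was that of Cyp1a1, the enzyme induced through the aryl hydrocarbon receptor (1.63 ± 0.17, adjusted p = 6.5e-08). Its difference was 0.18 ± 0.12 in regular weight and 1.82 ± 0.13 in obese mice. The means were 5.67 ± 0.21 (SD, n = 8) in RW-SC, 5.85 ± 0.27 (n = 8) in RW-MS, 4.38 ± 0.23 (n = 8) in DIO-SC and 6.20 ± 0.23 (n = 6) in DIO-MS, so that the diets lay further apart in air than in smoke. The inducible heat shock gene Hspa1b had an interaction of -1.71 ± 0.36 (adjusted p = 0.0144, and 0.0788 with only the groups compared) and differed by -1.57 ± 0.26 in obese mice; its near-identical copy Hspa1a, whose signal may not be separate, differed by -1.30 ± 0.24 there. The rest, named after their values were seen as Hspa1a was, were the receptor Ahr (0.43 ± 0.09 in obese mice), Cth (0.78 ± 0.11), an enzyme of cysteine synthesis, Dact1 (0.40 ± 0.08), Asxl1 (0.20 ± 0.05), Phf20 (0.21 ± 0.04) and Gadd45g (-0.37 ± 0.09). Among the obese controls, DIO-SC 5 carried airway secretoglobin transcripts (Scgb1a1 10.20) and DIO-SC 2 thymus transcripts (Rag1 8.00), whose part in these values was not tested.

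Clock, Ddit4 and Prkd1, a protein kinase D, had interactions of 0.34 ± 0.07, -1.13 ± 0.25 and 0.46 ± 0.10 that passed with all arrays (adjusted p = 0.0186, 0.0313 and 0.0261) and did not pass without RW-MS 2, 6, 7 and 8 (adjusted p = 0.204, 0.0643 and 0.128). With only the groups compared Clock and Prkd1 did not pass (adjusted p = 0.0769 and 0.0882), and Clock was also lost without RW-MS 2, 6 and 8 (adjusted p = 0.0911). Ddit4 passed in 9 of the 16 refits without 1 array. It passed neither with the closing digits of the animal number as a block (adjusted p = 0.0761) nor without RW-SC 7 and 8 (adjusted p = 0.0553). In obese mice 4.55% of genes passed. Of the 266 genes that rose in regular weight mice, 80 also rose in obese mice, which is 30.1% of these and 23.5% of the 340 that rose there, where 3.66% of all genes rose. Of the 372 that fell, 32 also fell in obese mice (8.60%, and 38.6% of the 83 there, where 0.893% of all genes fell). The median difference of the 266 genes that rose was 0.19 in regular weight mice and 0.13 in obese mice. For the 372 genes that fell it was -0.21 in regular weight mice and -0.06 in obese mice. Both sets were chosen by the values of regular weight mice.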

How the data were processed

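Total RNA from whole hearts (3 µg per mouse, 1 mouse per array) was hybridized to Affymetrix mouse arrays. The deposited log2 values per probe set were made by the authors with RMA, per the submitters' processing notes; its version, scan dates and batches are not stated there. The table held 22690 probe sets, 20393 of them with 1 gene in the platform annotation, 20364 of which matched RefSeq by Entrez identifier. They covered 12394 genes. Each gene was represented by its brightest probe set (mean over 45 arrays), and the lowest 25% of genes (mean below 4.90) were left out, which left 9295. Arrays have no read depth, and their number limits the precision.

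Group means of all 45 arrays in 6 groups were fitted with lmFit, contrasts.fit and eBayes (limma 3.58.1, R 4.3.3, two-sided, 42.6 residual degrees of freedom with the prior), and p values were adjusted by Benjamini-Hochberg at a threshold of 0.05. The labels call the arrays of a group biological replicates. The procedure was tested on simulated data. Summaries used Python 3.11.15, pandas 2.3.3, numpy 2.4.6 and matplotlib 3.10.9.

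The samples compared and the lists of genes were chosen with earlier results of these data known. Genes were named by rule: the 15 largest rises and falls past the threshold with all arrays, without RW-MS 2, 6 and 8 (Sln below 8) and without any 1 array; the 10 smallest adjusted p; up to 4 members past the threshold of each of 49 lists (33 pathways, 16 cell types); a set panel; up to 5 each way of the differences between comparisons; and the atrial list. List means are over tested members, each relative to its RW-SC mean. The replicate numbers of the labels name different mice, and no shared batch or day is stated for them. Same-numbered RW-MS and RW-SC arrays correlated at -0.32 to 0.30 in their deviations from the group means. The closing digits of the animal number were a block only as an alternative. The other alternatives were no filter or a stricter one, the mean of all probe sets or each probe set, eBayes with trend and robust, a second quantile normalization, weights per array, a fit on the compared groups alone, the atrial list mean as a covariate, and leaving out each array; leaving out RW-MS 7 together with 2, 6 and 8, and leaving out RW-SC 7 and 8, were chosen after seeing the data.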

Additional observations from a re-analysis of the deposited data

Results flagged for a closer look

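In groups of 8, an array was singled out where its gap to the nearest other array was large against the group's range (Dixon's test at the 95% level). Of 264 groups checked 23 had such an array, and chance alone gives about 1 in 20. RW-MS 7 accounted for 9 of them. It was highest for Fkbp5 (8.30, others at most 7.42), Hspa1b (8.60, others at most 7.67), Lcn2 (6.18, others at most 5.62) and Myc (7.02, others at most 5.70), and lowest for Fdft1 (9.13), Kcnq1 (7.68), Nqo1 (7.84), Per3 (7.34) and Rit1 (8.80). RW-MS 2 was highest for Fscn1 (8.97) and lowest for Fth1 (13.63).

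Among the controls, RW-SC 1 was highest for Lcn2 (6.25), Pdia3 (10.27) and Pfkp (8.53) and lowest for Nqo1 (7.77) and Rit1 (8.37). RW-SC 4 was lowest for the atrial genes Sln (11.56, others at least 12.24), Myl4 (12.04), Nppa (13.32) and Clu (12.92) and for Cp (10.16). RW-SC 7 was highest for the atrial growth factor Bmp10 (7.71, others at most 6.12), and RW-SC 3 was lowest for Clec2d (8.10).

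Genes past the threshold in RW-MS minus RW-SC differed between the smokes where RW-SS minus RW-MS passed: Bhlhe40 by -0.39, Clec2d by -0.52, Dbp by -0.70, Fscn1 by -0.44, Slc25a13 by -0.39 and Timp4 by 0.68. With only the groups compared, Dbp alone of these passed, and the limma adjusted p of the others was 0.0853 to 0.153. The atrial genes Myl4 (2.46), Myl7 (2.48), Nppa (1.23) and Sln (2.73) passed as well, and without RW-MS 2, 6 and 8 they differed by 0.00, -0.06, -0.01 and -0.09.

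The effect of mainstream smoke differed between the diets for Cebpb (-0.61), Clock (0.34), Cyp1a1 (1.63), Ddit4 (-1.13), Hspa1b (-1.71), Hectd3 (-0.34), Nr1d1 (0.65), Pcf11 (-0.36), Prkd1 (0.46), Slc41a3 (0.44) and Tfrc (1.38), given as obese minus regular weight. Hectd3, a ubiquitin ligase, and Pcf11, a factor of transcript cleavage, rose by 0.25 ± 0.04 and 0.26 ± 0.05 in regular weight mice and differed by -0.09 and -0.10 in obese mice. Without RW-MS 2, 6, 7 and 8 their interactions did not pass (adjusted p = 0.0804 and 0.0643), nor did that of Hspa1b (0.0643).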

How the results depend on the processing

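The 638 genes past the threshold in RW-MS minus RW-SC became 402 (176 higher, 226 lower) with only the groups compared, 380 (160 and 220) without RW-MS 2, 6 and 8, and 318 (168 and 150) without RW-MS 2, 6, 7 and 8, which leave fewer arrays. Array weights gave 450 higher. With the atrial list mean as a covariate 539 genes passed (234 higher, 305 lower). Of the 100 genes named by rule that passed with all arrays, 27 did not pass with that covariate and 1, Nppa, changed sign. With only the groups compared, 23 of the 100 did not pass. Leaving out 1 array gave 452 to 739 in all, 195 to 366 higher and 243 to 446 lower; the fewest lower came without RW-MS 8, and 739 without RW-MS 7. For RW-SS minus RW-MS (541), testing every probe set gave 1156, only the groups compared 4, and leaving out 1 array 292 (RW-MS 2) to 722 (RW-MS 7). The interaction (21) gave 48 with array weights, 7 without RW-MS 2, 6, 7 and 8, and 17 to 33 without 1 array, most without RW-MS 1. The sign turned for atrial genes, by which the 3 arrays were picked: without RW-MS 2, 6 and 8, and without 7 too, Sln differed by 0.10 and 0.15, Myl4 by 0.15 and 0.20, Myl7 by 0.059 and 0.10, and Nppa by 0.11 and 0.12 (0.015 with the atrial list mean as covariate). The cause of the other changes was not tested.

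With the closing digits of the animal number as a block the counts were 553 (223 higher, 330 lower), 436 and 20. Of the same-numbered RW-MS and RW-SC arrays, 3 of 8 pairs correlated above 0.1 and 1 of 8 arrays was matched best by its own number. So few pairs, with several arrays apart in tissue markers, cannot exclude a shared batch or run.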
